A study of Homo sapiens with 15 samples.

Results

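The ZNF genes of human chromosome 19 encode proteins with C2H2 zinc fingers, small folds that each hold a zinc ion between 2 cysteines and 2 histidines and that together read DNA. The set was taken as the protein-coding genes whose symbol is ZNF followed by a number, with or without 1 letter, and whose position in the file is on chromosome 19. There were 233 such genes among 31352 gene identifiers in the file. Of these, 183 had enough reads to be tested and 50 did not, and none of the 50 had a group mean above 0.737 CPM. CPM is the read count per 1000000 reads of the library after scaling.

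Most of these genes sit in a few dense clusters that arose by repeated duplication. Many of their products carry a KRAB box, which binds the corepressor TRIM28 (KAP1). TRIM28 in turn brings SETDB1, an H3K9 methyltransferase, and HP1 proteins to the DNA that the fingers bind, often retroelements.

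RNA was measured by sequencing of polyadenylated RNA in 15 libraries, 3 per group, from a human cell line with doxycycline-inducible NICD1, NICD2, NICD3 or NICD4, the intracellular domain of NOTCH1 to NOTCH4, and from an empty vector (EV) line described as isogenic. An intracellular domain enters the nucleus and activates transcription with RBPJ. The labels call the line HCT116, a colorectal carcinoma line, in all 15 libraries, while the sample descriptions carry the name U373, a glioma line. They do not give the doxycycline dose or time, whether EV cells received doxycycline, whether a line is 1 clone, or whether replicates were separate cultures, so p-values measure the spread between these libraries, which may be technical. NICD4 replicate 1 is NICD4 by its title, and its other fields name NICD3. The 4 comparisons with EV use the same 3 EV libraries and are not independent of each other, and a difference between the lines and an effect of NICD expression cannot be told apart in them.

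Libraries held 11630195 to 27704492 reads. The EV libraries stood apart from the other 12. Their scaling factors were 1.21 to 1.32, against 0.793 to 1.09 in the NICD libraries. All 8 colorectal markers and all 8 glioma or astrocyte markers on fixed lists were in the file. The summed colorectal markers reached 12483 to 15535 CPM in the NICD1 libraries, 9524 to 11193 CPM in the NICD2, 18438 to 23222 CPM in the NICD3 and 10862 to 15614 CPM in the NICD4 libraries, against 2095 to 2672 CPM in EV. The keratins KRT8, KRT18 and KRT19 made most of these sums, with NICD1 means of 8518, 2324 and 2728 CPM. CDH1 and CDX2 were also called higher in all 4 NICD groups. EPCAM was called higher in NICD1 to NICD3 and not in NICD4, and VIL1 was called lower in NICD1 and NICD3 (-1.08 and -1.80). The summed glioma markers were 41.4 to 81.1 CPM over the NICD libraries and 51.9 to 55.7 CPM in EV, with OLIG2, AQP4 and SOX2 at or near 0 in every group, and so was the colorectal marker CDX1. The part of these differences in the results below was not tested. NOTCH1 was at 26.9, 30.2 and 27.9 CPM in NICD1 libraries, against 30.5, 32 and 28.4 CPM in EV (log2 change -0.10, limma adjusted p = 0.293). NOTCH2 was called higher in NICD2 than in EV (0.42, limma adjusted p = 1.13e-04), and NOTCH3 in NICD3 and NOTCH4 in NICD4 were not (0.17 and 0.28, limma adjusted p = 0.186 and 0.303). HES1, a direct NOTCH target that encodes a repressor, was higher in all 4 NICD groups, with log2 changes of 1.03, 2.43, 1.32 and 1.55 (called by limma).

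The promoters below come from genes on which the results turn: neighbours in 1 cluster that were lost from the NICD libraries (ZNF841, ZNF880, ZNF528) or kept there (ZNF616, ZNF766), the lost member with the highest level in EV (ZNF71), and the member that differed most between NICD4 and NICD1 (ZNF582). Each runs 5′ to 3′ over 250 bases before and 50 after the transcription start, from RefSeq (GRCh38.p14), with CpG dinucleotides in capitals.
ZNF841 (chr19:52095716-52096015, minus strand): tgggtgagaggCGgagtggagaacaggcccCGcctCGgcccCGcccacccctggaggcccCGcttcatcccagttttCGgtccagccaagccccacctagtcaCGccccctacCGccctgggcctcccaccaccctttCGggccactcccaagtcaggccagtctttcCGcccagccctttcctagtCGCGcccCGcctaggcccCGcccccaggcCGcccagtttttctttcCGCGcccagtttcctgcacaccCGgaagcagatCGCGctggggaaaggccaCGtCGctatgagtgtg
ZNF616 (chr19:52139889-52140188, minus strand): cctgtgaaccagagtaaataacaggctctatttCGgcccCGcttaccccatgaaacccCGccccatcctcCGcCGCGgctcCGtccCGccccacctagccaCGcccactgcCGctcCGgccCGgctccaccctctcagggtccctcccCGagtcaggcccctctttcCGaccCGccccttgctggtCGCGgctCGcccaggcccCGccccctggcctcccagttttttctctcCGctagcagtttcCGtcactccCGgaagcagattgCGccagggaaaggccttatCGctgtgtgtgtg
ZNF766 (chr19:52269337-52269636, plus strand): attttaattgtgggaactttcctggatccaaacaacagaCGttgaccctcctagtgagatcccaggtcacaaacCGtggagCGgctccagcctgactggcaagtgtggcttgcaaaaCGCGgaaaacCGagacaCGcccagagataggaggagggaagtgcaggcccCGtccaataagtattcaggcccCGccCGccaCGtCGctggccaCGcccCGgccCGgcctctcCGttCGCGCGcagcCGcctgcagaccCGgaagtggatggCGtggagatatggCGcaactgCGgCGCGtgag
ZNF880 (chr19:52369673-52369972, plus strand): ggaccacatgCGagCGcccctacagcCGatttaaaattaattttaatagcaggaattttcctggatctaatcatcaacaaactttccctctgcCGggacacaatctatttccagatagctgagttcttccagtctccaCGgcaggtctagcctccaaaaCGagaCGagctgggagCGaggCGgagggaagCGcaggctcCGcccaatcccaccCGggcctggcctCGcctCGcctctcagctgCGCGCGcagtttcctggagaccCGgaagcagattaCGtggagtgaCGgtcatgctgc
ZNF528 (chr19:52397599-52397898, plus strand): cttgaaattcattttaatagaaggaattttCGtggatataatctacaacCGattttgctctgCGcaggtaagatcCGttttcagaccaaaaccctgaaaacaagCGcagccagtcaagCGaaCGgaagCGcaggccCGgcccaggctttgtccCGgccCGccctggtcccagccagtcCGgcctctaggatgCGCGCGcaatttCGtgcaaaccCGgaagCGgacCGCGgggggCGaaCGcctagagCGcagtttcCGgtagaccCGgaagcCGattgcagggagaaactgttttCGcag
ZNF71 (chr19:56595052-56595351, plus strand): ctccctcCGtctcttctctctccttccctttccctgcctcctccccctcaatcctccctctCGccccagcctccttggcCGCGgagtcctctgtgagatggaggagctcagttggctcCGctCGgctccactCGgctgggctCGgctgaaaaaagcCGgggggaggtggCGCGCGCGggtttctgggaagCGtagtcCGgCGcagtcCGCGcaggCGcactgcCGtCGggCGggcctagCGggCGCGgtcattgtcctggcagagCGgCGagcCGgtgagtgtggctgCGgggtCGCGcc
ZNF582 (chr19:56393485-56393784, minus strand): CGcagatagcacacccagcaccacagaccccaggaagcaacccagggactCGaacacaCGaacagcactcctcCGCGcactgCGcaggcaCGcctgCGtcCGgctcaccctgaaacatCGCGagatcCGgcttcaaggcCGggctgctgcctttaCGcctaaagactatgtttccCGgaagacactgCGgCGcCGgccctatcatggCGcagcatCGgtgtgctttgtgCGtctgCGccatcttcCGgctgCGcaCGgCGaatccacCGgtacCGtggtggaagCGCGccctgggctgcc

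The lost and the kept neighbours overlapped in CpG number. In the windows printed, the 3 lost genes held 22, 20 and 27 CpG and the 2 kept genes 24 and 26. ZNF841 has another RefSeq window, not printed, with 6 CpG. ZNF71 held 31 and ZNF582 held 30. RefSeq promoters were matched to 205 of the 233 members, in 253 windows, with a median of 20 CpG, against 21 over 22199 windows of all protein-coding genes. Members near zero in the NICD libraries, a class defined below, had a median of 22 CpG (33 windows), and members that kept at least 0.5 of the EV level had 23 (69 windows). Members of cluster 4 had the lowest median of the clusters, 10 CpG in 29 windows. The RBPJ core GTGGGAA, searched on both strands, was present in 7.91% of the members' windows and in 6.01% of all protein-coding windows. The shorter TGGGAA, which lies inside it, was present in 42.3% and 22.7%. By class, TGGGAA was present in 39.4% of the windows of near-zero members, 36.2% of those of members that kept at least 0.5 and 49.4% of those between. By cluster the share ran from 0% in cluster 1 (6 windows) to 77.8% in cluster 7 (18 windows), with 22.2% in cluster 8 (45 windows). Of the promoters printed, ZNF766 held both and ZNF71 held the shorter one. A match is a description of these letters and not a bound site.

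Fewer members were detected in NICD libraries, while their summed level was not lower in each NICD group. Of the 233 members, 143 to 170 had at least 1 read in a NICD library, against 225 to 229 in an EV library. Their summed level was 1587 ± 202 CPM in NICD1, 1313 ± 79.1 CPM in NICD2, 1455 ± 84.8 CPM in NICD3 and 2151 ± 392 CPM in NICD4, against 1434 ± 5.45 CPM in EV (SD, n = 3 each). In bulk RNA, fewer cells with a transcript and less of it per cell cannot be told apart.

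In NICD1, 26 of the 183 tested members rose and 138 fell (limma, adjusted p under 0.05 over 15122 genes), where 35.6% of all genes tested rose and 39.8% fell, 75.4% in all. In NICD2, 20 rose and 118 fell, where 29.6% and 30% of all genes did, 59.5% in all. In NICD3, 22 rose and 131 fell, where 33% and 36.2% did, 69.2% in all. In NICD4, 31 rose and 128 fell, where 37.3% and 43.6% did, 80.9% in all. The median log2 change of the members over NICD1 to NICD4 was -1.45, -0.87, -1.30 and -1.26, beside -0.08, -0.03, -0.07 and -0.12 over all genes tested. The medians are the same with genes that had no NICD read set at their lower bound. Of the 183, 57 passed the filter on low reads only through the EV libraries and therefore had to be lower in NICD libraries. Of the other 126, 81, 61, 74 and 71 fell in NICD1 to NICD4, with medians of -0.77, -0.45, -0.63 and -0.60, where 37%, 26.9%, 33.3% and 41% of the 14210 genes that passed in the NICD libraries fell. Leaving out 1 EV library and filtering again leaves 128 members tested, since the filter asks for 3 libraries, and 83, 64, 74 and 71 of them fell without EV replicate 1, 77, 50, 73 and 65 without EV replicate 2 and 80, 54, 75 and 68 without EV replicate 3. With the 183 members kept, 104 to 136 fell.

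Other ZNF genes had smaller negative medians, and the other genes of the chromosome had positive ones. The 208 tested ZNF genes of other chromosomes had median changes of -0.48, -0.29, -0.43 and -0.53 in NICD1 to NICD4, with 116, 84, 120 and 119 called lower. The 838 other protein-coding genes of chromosome 19 had medians of 0.76, 0.44, 0.65 and 1.05, with 111, 115, 112 and 104 called lower. Within the span of cluster 6 the 3 other tested protein-coding genes had medians of -3.30, -3.21, -3.61 and -2.03, and within that of cluster 8 the 2 tested had 0.62, 0.10, 0.42 and 0.99. In the spans of clusters 2, 3, 7, 9 and 10 (3, 3, 9, 12 and 6 tested) medians were -0.11 to 1.23. Genes without NICD reads were set at their lower bound there. These other genes are those without a ZNF symbol, so zinc finger genes with other symbols can be among them. Of all genes tested, 39.8%, 30%, 36.2% and 43.6% were called lower in NICD1 to NICD4. The differences between these sets were not tested.

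Ordered along the chromosome, the members formed 10 clusters, runs of at least 5 members with neighbouring starts at most 500 kb apart, and 13 members lay outside them. Positions are those of the file (GRCh37). The lowest medians over the tested members were in cluster 8 (chr19:52074551-54083523, 38 members, 27 tested), cluster 6 (chr19:36673188-38307940, 26 members, 20 tested) and cluster 4 (chr19:19779605-24312643, 34 members, 27 tested). Beside the counts by cluster here and below, 39.8%, 30%, 36.2% and 43.6% of all genes fell and 35.6%, 29.6%, 33% and 37.3% rose. In cluster 8, 22, 21, 21 and 22 members fell in NICD1 to NICD4 and 2, 2, 1 and 3 rose, with median log2 changes of -4.57, -4.57, -4.57 and -4.14, or -4.34, -4.68, -4.72 and -4.01 with genes without NICD reads at their bound. In cluster 4, 24, 22, 24 and 24 fell and none rose, with medians of -3.31, -3.43, -3.17 and -2.22. In cluster 6, 17, 14, 17 and 14 fell and 2, 1, 1 and 2 rose, with medians of -3.40, -3.16, -3.24 and -2.03. These 3 clusters hold 16, 15 and 9 of the 57 members that passed the filter only through EV, in the order 8, 4 and 6, and that had to be lower. Their other 11, 12 and 11 tested members had medians from -0.77 to -0.33, from -1.14 to -0.82 and from -0.76 to -0.14 over the NICD groups, and those of cluster 7 (14 members) had medians from -1.57 to -0.79. The place of cluster 8 as the lowest thus rests on members that passed only through EV, a comparison chosen after seeing the data.

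Cluster 9 (chr19:55987699-57135540, 15 members, 13 tested) went the other way. There 9, 7, 9 and 10 members rose in NICD1 to NICD4 and 4, 3, 4 and 3 fell, with medians of 1.06, 0.57, 0.77 and 1.74. Its members had a median transcript GC content of 61.7%, against 41.2% in cluster 8 and 37.4% in cluster 4, and 6 of its 15 carried a KRAB match, against 38 of 38 in cluster 8. The median depends on where the cluster was cut. With neighbours at most 250 kb apart, a gap that can only split runs, it was -1.79 over the 4 NICD groups. With 1000 kb, which joins the cluster to cluster 10, it was -0.67, beside 0.91 as defined here. The medians at 250 kb and 1000 kb are of other sets of genes. Changes of single members do not depend on the cut, and ZNF524, ZNF579, ZNF580 and ZNF581 were called higher in all 4 groups. The 10 members of cluster 9 that passed in the NICD libraries had medians from 0.76 to 1.99. The other clusters lay between. Cluster 10, the largest with 40 members (35 tested, chr19:57702868-59000899), had 25, 24, 26 and 25 members lower and medians of -1.03, -0.78, -0.93 and -0.78. Cluster 3 (25 members, 14 tested) had medians of -1.47, -1.10, -1.56 and -1.49, and cluster 7 (19 members, 17 tested) -1.76, -0.94, -1.46 and -1.65. Clusters 1, 2 and 5 held 4, 9 and 5 tested members, with medians from -0.53 to -0.31, from -0.98 to -0.68 and from -1.92 to -1.32. The 12 tested members outside the clusters had medians from -0.26 to 0.15.

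**Figure D1:**
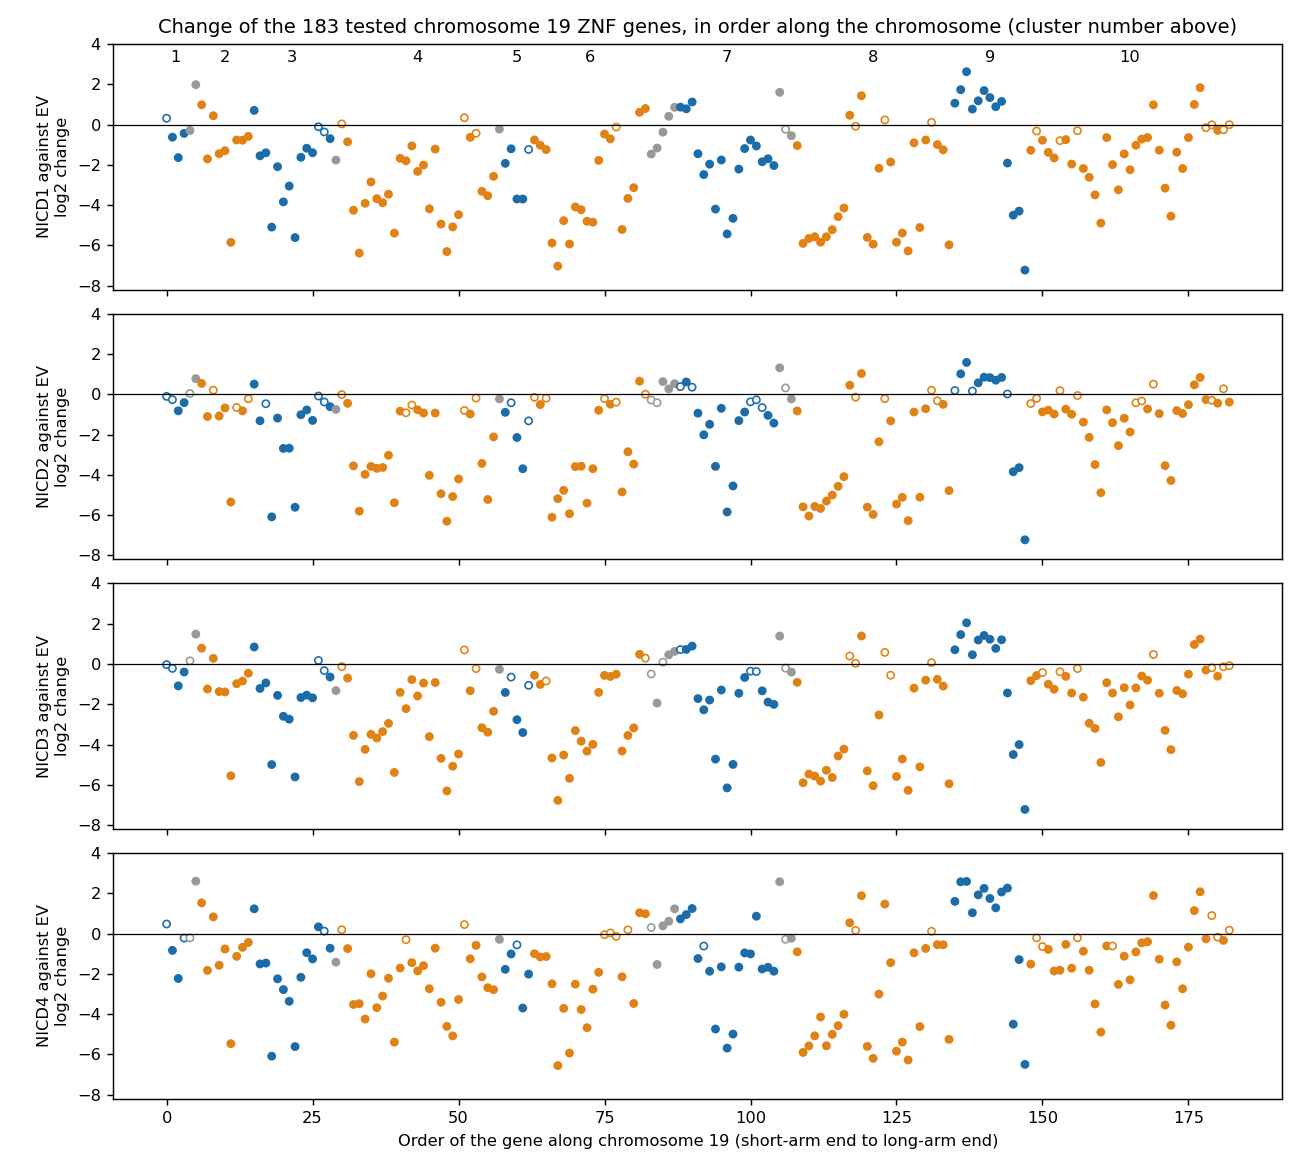
Log2 change of the 183 tested members against EV (vertical axis) in each NICD group, in order along chromosome 19 (horizontal axis, from the short-arm end), with blue and orange for alternate clusters, numbered above, and grey for members outside them. Filled points were called and open points were not. Runs of points below -4 lie in clusters 4, 6 and 8, while most points of cluster 9 lie above 0.

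Many members that fell had few or no NICD reads left. Of the 164 members with an EV mean of at least 1 CPM, 40 had at most 3 reads over the 3 NICD1 libraries, 37 in NICD2, 36 in NICD3 and 32 in NICD4. These are 24.4%, 22.6%, 22% and 19.5%, where 2.08%, 1.82%, 1.67% and 2% of all 12934 tested genes with that EV level were as low. Over the 12 NICD libraries together, 32 members had at most 12 reads, called near zero here (19.5%, against 1.62% of all genes), and 6 had none. The highest of the 32 had 11 reads and the next member had 13. The share was 1.51% (3 of 199) among ZNF genes of other chromosomes and 0.801% (6 of 749) among other protein-coding genes of chromosome 19. At a transcript GC content of 44% or less it was 28.7% of 101 members, against 1.41% of 3819 genes without a ZNF symbol. Between 1 and 10 CPM in EV it was 24.8% of 129 members, against 4.46% of 4264 genes. In the other direction, 0 of the 117 members with at least 1 CPM in a NICD group had 3 or fewer reads in EV, and with 0.211% of 13275 genes there a count of 0 does not set the members apart.

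All 32 near-zero members had a KRAB match, and they had a median of 13 fingers, a median transcript GC content of 39.96% and EV levels of 1.01 to 8.09 CPM. With so few NICD reads, they passed the filter only through the EV libraries and had to be lower. Their calls and adjusted p-values below are thus no further support. By cluster, 12 lay in cluster 8, 6 in cluster 4, 5 in cluster 6, 2 each in clusters 3, 7, 9 and 10, and 1 in cluster 2. Another 60 members kept at least 0.5 of the EV mean in every NICD group. Of these 60, 35 had a KRAB match, with a median GC content of 48.4% and a median EV level of 8.99 CPM, against 2.40 CPM for the near-zero members. The remaining members with an EV mean of at least 1 CPM, 72, lay between, and 66 of them had a KRAB match.

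ZNF71, at the long-arm end of cluster 9 (chr19:57106664-57135540, plus strand, 13 fingers), had the highest EV level of the near-zero members. It had no read in any NICD1, NICD2 or NICD3 library and 0, 0 and 0.195 CPM in NICD4 libraries, against 8.12, 8 and 8.16 CPM in EV. All 12 NICD libraries were below all 3 EV libraries. Separation of 1 group from EV was common and does not set a gene apart, here or below. Of all 15122 genes tested, 42.7%, 35.7%, 42.3% and 44% had all 3 libraries of NICD1 to NICD4 below EV. All 3 lay above EV in 37.8%, 33.5%, 36.8% and 37.7%. With a floor of 3 reads over a group, it was at least 128-fold lower in NICD1, at least 162-fold lower in NICD2 and at least 175-fold lower in NICD3. The ratio of EV to NICD4 was 148 (exact 95% interval 40.9 to 1226, counting error only), and limma's adjusted p was 1.11e-08, 1.29e-08, 1.25e-08 and 2.62e-08 in NICD1 to NICD4.

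ZNF529 (chr19:37034518-37064197, minus strand) opened a run of 5 near-zero neighbours in cluster 6 that ended at ZNF568. It had 0 CPM in the 3 NICD1 libraries, 0.134, 0.202 and 0.0987 in NICD2, 0, 0 and 0.0369 in NICD3 and 0.0904, 0 and 0 in NICD4, against 7.30, 6.98 and 6.82 CPM in EV. The groups did not overlap. It was at least 111-fold lower in NICD1 (limma adjusted p = 2.64e-09), and the log2 change in NICD2 was -5.19 ± 0.40 (SE, limma adjusted p = 6.98e-08). In the same run, ZNF567 had no read in NICD1, NICD2 and NICD4 libraries and 0, 0 and 0.0369 CPM in NICD3, against 2.22, 4.17 and 3.76 CPM in EV. It was at least 55.4-fold, 70.0-fold and 42.8-fold lower in NICD1, NICD2 and NICD4. ZNF136 in cluster 3 had no read in any of the 12 NICD libraries, against 2.00, 3.55 and 2.49 CPM in EV, so all NICD libraries were below all EV libraries.

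In cluster 8 all tested members from ZNF577 to ZNF841 had few NICD reads, and farther along near-zero genes lay among kept ones. From the short-arm end, ZNF577, ZNF649, ZNF613, ZNF615, ZNF432 and ZNF841 were near zero. ZNF350 (ZBRK1, a repressor known for binding BRCA1) and ZNF614 lie among them and missed the class by its limit of 12 reads, with 13 and 20 NICD reads against 333 and 414 in EV. Then came ZNF616, ZNF766 and ZNF480, which kept at least 0.5 of the EV mean, the near-zero pair ZNF880 and ZNF528, and, after 3 members outside the class, ZNF600, ZNF28 and ZNF468. ZNF320, also outside the class, separated these from ZNF816.

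**Figure D2:**
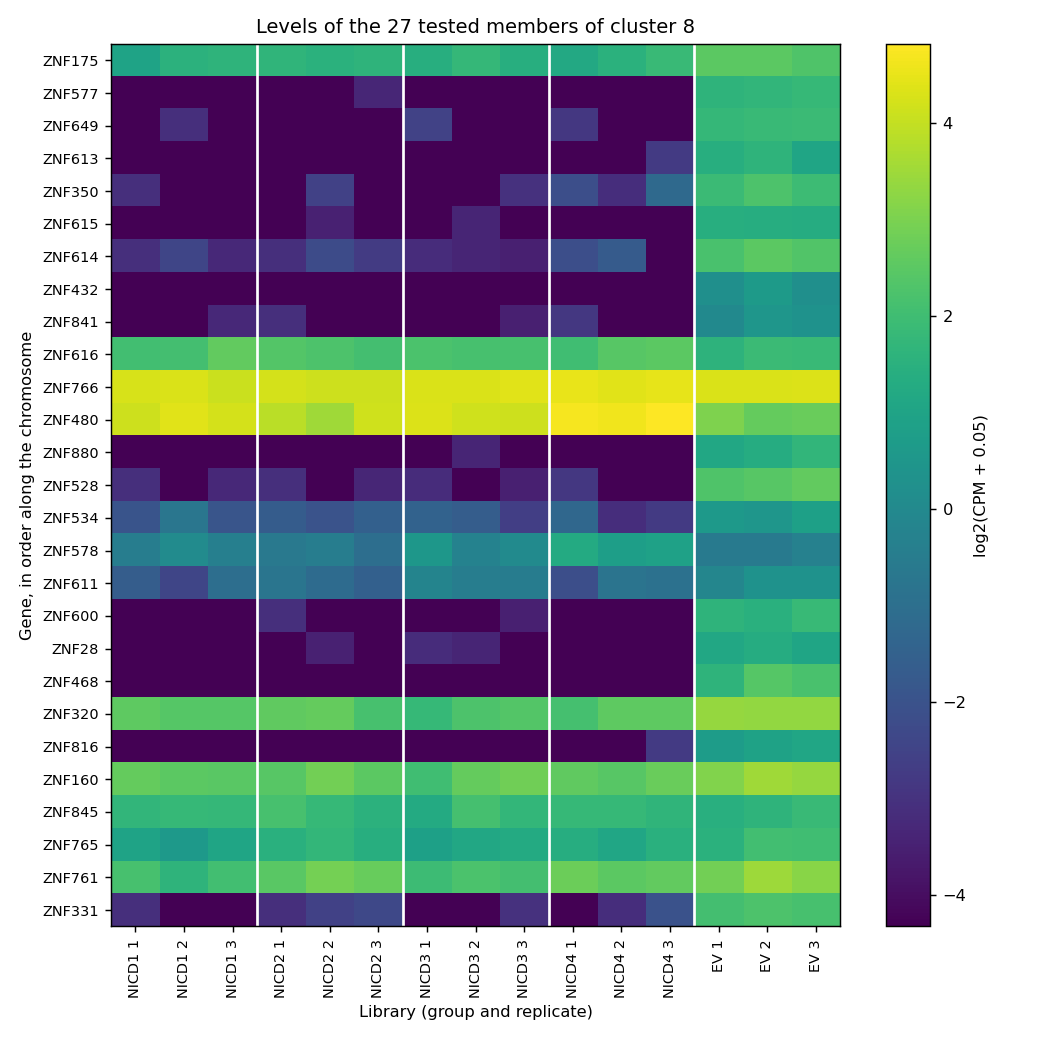
Level of the 27 tested members of cluster 8 (rows, in order along the chromosome) in the 15 libraries (columns, NICD1 to NICD4 left of EV) as log2(CPM + 0.05), dark for low and yellow for high. Rows such as ZNF577, ZNF880 and ZNF816 are dark in the 12 NICD libraries and green in EV, while ZNF766 is yellow in all 15.

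ZNF841 (chr19:52567719-52599018, minus strand) had 0, 0 and 0.0547 CPM in NICD1, 0.0668, 0 and 0 in NICD2, 0, 0 and 0.0369 in NICD3 and 0.0904, 0 and 0 in NICD4, against 0.952, 1.33 and 1.23 CPM in EV. Each NICD group thus had 1 read, and the ratio of EV to NICD1 was 56.6 (exact 95% interval 9.92 to 2259). Its neighbour ZNF616 (chr19:52617654-52643191, minus strand) had 4.12, 4.16 and 6.07 CPM in NICD1, 5.08, 4.81 and 4.15 in NICD2, 4.66, 4.40 and 4.39 in NICD3 and 3.98, 5.42 and 5.64 in NICD4, against 2.95, 3.74 and 3.56 CPM in EV. All 12 NICD libraries were above the 3 EV libraries. It was called higher in NICD1, NICD2 and NICD4 (log2 changes 0.46, 0.45 and 0.54, limma adjusted p = 0.0263, 0.0386 and 0.011) but not in NICD3 (0.39, limma adjusted p = 0.0581). With library totals alone as the scaling no group was called and NICD4 turned to -0.000425, with the GC trend removed all 4 were called higher (0.90 to 1.45), and leaving out EV replicate 1 ended all 3 calls. The NICD1 call was also lost without EV replicate 3 or NICD1 replicate 3, and the NICD2 call without EV replicate 2 or 3 or NICD2 replicate 1 or 2.

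ZNF766 (chr19:52772824-52795977, plus strand) stayed close to its EV level. It had 19.2, 19.7 and 16.9 CPM in NICD1, 18.7, 17.4 and 17.3 in NICD2, 19.4, 19.8 and 21 in NICD3 and 22.8, 21.1 and 22 in NICD4, against 19.4, 19.6 and 19.9 CPM in EV. It was not called in any group (log2 changes from -0.15 to 0.16, limma adjusted p from 0.0808 to 0.746), and removing the GC trend made all 4 groups called higher (0.28 to 1.02). ZNF480, next to it (chr19:52800425-52827333, plus strand), rose in all 4 groups. It had 17.4, 21.1 and 18.8 CPM in NICD1, 14.6, 11.4 and 17.8 in NICD2, 20.1, 18.0 and 17.4 in NICD3 and 25.7, 24.4 and 28.1 in NICD4, against 8.25, 6.33 and 6.63 CPM in EV. The groups did not overlap, and the log2 changes were 1.43, 1.03, 1.39 and 1.88 (limma adjusted p from 5.00e-08 to 3.81e-05), or 2.26, 1.52, 2.06 and 2.87 with the GC trend removed.

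ZNF880 and ZNF528, the next pair, were near zero again. ZNF880 (chr19:52873170-52889048, plus strand) had 1 read in the 12 NICD libraries, in NICD3, against 2.18, 2.50 and 3.18 CPM in EV, and was at least 41.7-fold, 52.6-fold and 32.2-fold lower in NICD1, NICD2 and NICD4. ZNF528 (chr19:52901102-52921657, plus strand) had 0 to 0.0904 CPM in the NICD libraries, against 4.90, 5.44 and 6.13 CPM in EV. The ratio of EV to NICD was 131, 165, 179 and 202 for NICD1 to NICD4, with exact 95% intervals of 36.0 to 1084, 45.5 to 1370, 49.4 to 1486 and 36.1 to 8002. ZNF614, outside the near-zero class, had 0 to 0.261 CPM in the NICD libraries, against 4.53, 5.65 and 5.02 CPM in EV, with log2 changes of -5.22, -5.00, -5.64 and -5.00 (limma adjusted p from 3.63e-07 to 1.52e-06). Like the near-zero members, ZNF614 passed the filter only through EV and had to be lower. ZNF468 had no NICD read, but only 0.846% of its 50-base stretches were unique to it, so its reads cannot be told from those of near-identical transcripts. ZNF577 and ZNF649 overlap on the same strand.

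Members known or reported to bind and repress retroelements were mostly lower. Of 9 such genes, 9, 7, 9 and 9 fell in NICD1 to NICD4 and none rose, with median log2 changes of -4.94, -4.94, -4.69 and -3.41, or -4.70, -5.03, -4.69 and -3.41 at the bound. After the trend on GC content was removed, 7, 5, 8 and 6 fell. Of all genes tested, 39.8%, 30%, 36.2% and 43.6% fell, or 28.9%, 22.3%, 27.2% and 33% with the trend removed. Of the 9, 5 passed the filter only through EV and had to be lower. The other 4 had medians of -1.03, -0.69, -1.05 and -1.35, and 4, 2, 4 and 4 of them fell, or 2, 0, 3 and 1 with the GC trend removed. ZNF93, a repressor of L1 elements, had no read in NICD1, 0, 0.0404 and 0.0494 CPM in NICD2, 0, 0.0453 and 0.0369 in NICD3 and 0.271, 0.326 and 0.486 in NICD4, against 4.72, 3.95 and 4.83 CPM in EV. It was at least 70.4-fold lower in NICD1, and the NICD4 libraries were above the other 9 NICD libraries (NICD4 over NICD1, log2 difference 2.90, limma adjusted p = 5.23e-05).

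ZNF208 had no read in the 9 NICD1, NICD2 and NICD3 libraries and 0.0904, 0.196 and 0.0973 CPM in NICD4, against 3.31, 4.94 and 4.67 CPM in EV. It was at least 69.8-fold, 88.2-fold and 95.6-fold lower in NICD1, NICD2 and NICD3. ZNF85 and ZNF257 had no NICD read, against means of 2.26 and 1.79 CPM in EV. ZNF43 had 0 to 0.543 CPM in the NICD libraries, against 1.72, 1.82 and 1.34 CPM in EV. ZNF430 fell by 1.67, 0.84, 1.41 and 1.71 on the log2 scale in NICD1 to NICD4, and with the GC trend removed it had -0.84, -0.35, -0.74 and -0.72, with the NICD2 call lost (limma adjusted p = 0.202). ZNF431 and ZNF765 were not called in NICD2 (limma adjusted p = 0.104 and 0.165), and removing the GC trend ended the other 3 calls of ZNF431 (-0.23, -0.10 and -0.45) and the NICD4 call of ZNF765 (-0.16).

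ZNF91, which represses SVA and L1 elements, was still detected in every NICD library. It had 1.92, 1.37 and 1.42 CPM in NICD1, 0.935, 1.41 and 1.33 in NICD2, 0.819, 0.907 and 1.11 in NICD3 and 0.995, 0.913 and 1.07 in NICD4, against 2.04, 2.44 and 2.91 CPM in EV. No NICD library reached the lowest EV library. The log2 changes were -0.63, -0.98, -1.33 and -1.25 (limma adjusted p = 0.0166, 0.0015, 8.91e-05 and 9.02e-05). Removing the GC trend turned NICD1 to 0.20 and ended the call in NICD1, NICD2 and NICD4, and the NICD1 call was also lost without EV replicate 3, NICD1 replicate 2 or NICD1 replicate 3.

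Of 13 members whose promoters are reported methylated in tumours, 6 were tested and the other 7 were too low in every group. ZNF331, an imprinted gene, had 0 to 0.195 CPM in the NICD libraries, against 4.22, 4.70 and 4.37 CPM in EV. ZNF577 had 1 read in the 12 NICD libraries, against 3.04, 3.15 and 3.41 CPM in EV, and ZNF549 had none, against 1.45, 1.42 and 1.84 CPM in EV. These 3 fell in all 4 comparisons, but they passed the filter only through the EV libraries and had to be lower. The number that fell among the 6 tested, these 3 included, was 5, 4, 5 and 4 in NICD1 to NICD4, and 1, ZNF582, rose in NICD4. Of all genes tested, 39.8%, 30%, 36.2% and 43.6% fell. ZNF132 was not called in any (limma adjusted p from 0.144 to 0.988), and ZNF177 has only 2.18% of its 50-base stretches unique and is uncertain.

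Several well expressed members fell without being lost. ZNF146 (OZF), whose protein consists almost wholly of fingers, had the highest EV level per kb of transcript in cluster 6, 28.1 CPM per kb. It had 54.1, 48.3 and 53.0 CPM in NICD1, 71.4, 84.0 and 67.6 in NICD2, 40.8, 57.3 and 60.2 in NICD3 and 39.8, 49.8 and 53.1 in NICD4, against 89.3, 116 and 114 CPM in EV. The groups did not overlap, and the log2 changes were -1.03, -0.51, -1.02 and -1.16 (limma adjusted p = 2.76e-05, 0.00973, 3.74e-05 and 5.96e-06), with the NICD2 call lost once the GC trend was removed (-0.08).

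ZNF134 in cluster 10 had 0.825, 1.37 and 0.929 CPM in NICD1, 1.14, 2.06 and 1.97 in NICD2, 1.32, 1.45 and 2.06 in NICD3 and 1.54, 1.44 and 2.24 in NICD4, against 9.25, 11.1 and 9.92 CPM in EV. All NICD libraries were below all EV libraries (log2 changes -3.24, -2.55, -2.63 and -2.52, limma adjusted p from 9.57e-08 to 1.53e-06). ZNF274, which recruits SETDB1 to the 3′ ends of zinc finger genes, had 2.61, 2.25 and 4.32 CPM in NICD1, 5.95, 9.25 and 6.12 in NICD2, 4.03, 4.44 and 6.19 in NICD3 and 1.72, 3.33 and 1.36 in NICD4, against 11.6, 15.4 and 14.0 CPM in EV. Its groups did not overlap (log2 changes -2.18, -0.96, -1.48 and -2.74, limma adjusted p = 1.74e-05, 0.015, 6.12e-04 and 1.34e-06), and without EV replicate 2, NICD2 replicate 1 or NICD2 replicate 3 the NICD2 call was lost (limma adjusted p from 0.0501 to 0.0594). ZNF254 and ZNF419 fell in the 4 groups by 2.12 to 2.78 and by 1.82 to 2.95 on the log2 scale. ZNF544, with the highest EV level per kb in cluster 10 (16.3 CPM per kb), fell by 0.65, 0.52, 0.51 and 0.68 on the log2 scale. ZNF14 of cluster 4 fell by 0.85, 0.45, 0.70 and 0.74, and with the GC trend removed no call was left, NICD1 and NICD3 being at -0.0986 and -0.0971 and NICD2 and NICD4 turning to 0.00435 and 0.17. ZNF302 of cluster 5 fell by 1.92, 0.90, 1.42 and 1.77, and by 1.11, 0.76 and 0.80 in NICD1, NICD3 and NICD4 with the GC trend removed, when the NICD2 call was lost (-0.41, limma adjusted p = 0.222). ZNF57 of cluster 1 fell by 0.44, 0.41 and 0.40 in NICD1, NICD2 and NICD3 and was not called in NICD4 (-0.22, limma adjusted p = 0.157). Its 3 calls were lost with the GC trend removed (-0.06, -0.16 and -0.09).

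The members that rose were mostly GC-rich genes without a KRAB match. Of 20 tested genes on a fixed list of members taken to lack a KRAB box, 18, 15, 18 and 18 rose and 1, 2, 1 and 1 fell in NICD1 to NICD4, with median log2 changes of 1.03, 0.55, 0.86 and 1.40. Of all genes tested, 35.6%, 29.6%, 33% and 37.3% rose and 39.8%, 30%, 36.2% and 43.6% fell. With the GC trend removed, 13, 10, 15 and 13 rose and 2, 3, 2 and 2 fell, with medians of 0.48, 0.26, 0.48 and 0.70. In that setting 41.7%, 38.8%, 39.2% and 41.8% of all genes rose and 28.9%, 22.3%, 27.2% and 33% fell. ZNF507, GC-poor at 39.4%, was the member of the list that fell in all 4 comparisons, by 0.23 to 0.29, and it rose in all 4 with the GC trend removed (0.56, 0.24, 0.37 and 0.66). Its calls in NICD1, NICD2 and NICD3 were each lost when single libraries were left out, among them NICD1 replicate 1, NICD2 replicate 1 and NICD3 replicate 1.

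ZNF358, a member outside the clusters (chr19:7581004-7585912, plus strand), had 158, 247 and 140 CPM in NICD1, 88.8, 56.5 and 88.6 in NICD2, 165, 112 and 104 in NICD3 and 385, 195 and 266 in NICD4, against 53.7, 42.1 and 39.1 CPM in EV. The groups did not overlap, and the log2 changes were 1.98, 0.77, 1.48 and 2.60 (limma adjusted p = 1.23e-05, 0.0222, 2.10e-04 and 6.07e-07). They were 0.98, 0.30, 0.74 and 1.30 with the GC trend removed. The NICD2 call was then lost, as it was with library totals alone (0.49) and without EV replicate 2 or 3 or NICD2 replicate 1 or 3. Only 69.7% of its 50-base stretches were unique.

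ZNF524 in cluster 9 had 32, 41.7 and 25.7 CPM in NICD1, 17.3, 12.8 and 17.4 in NICD2, 24.3, 21.3 and 19.5 in NICD3 and 43.5, 25.4 and 28.6 in NICD4, against 5.99, 5.03 and 4.71 CPM in EV. All 12 NICD libraries were above EV (log2 changes 2.63, 1.58, 2.04 and 2.59, limma adjusted p from 5.58e-08 to 1.50e-05). Its neighbours ZNF579, ZNF580 and ZNF581 rose too, with log2 changes of 1.73, 1.01, 1.45 and 2.57 for ZNF579, of 1.69, 0.85, 1.41 and 2.24 for ZNF580, and of 1.34, 0.83, 1.22 and 1.74 for ZNF581. ZNF444, which also carries a SCAN domain, rose by 1.15, 0.83, 1.20 and 2.06, and ZNF296 and ZNF837 rose in all 4 groups, most in NICD4 (2.57 and 2.08). With the GC trend removed, the NICD4 changes were 1.55 for ZNF524, 1.47 for ZNF579, 1.44 for ZNF580, 1.10 for ZNF581, 0.79 for ZNF444, 1.34 for ZNF296 and 0.71 for ZNF837, and ZNF444 lost its call in NICD1 (0.17) and ZNF837 in NICD2 (0.33). ZNF428, with the highest EV level per kb in cluster 7 (43.5 CPM per kb), rose in NICD1, NICD3 and NICD4 (1.12, 0.89 and 1.24) and was not called in NICD2 (0.35, limma adjusted p = 0.108), with 0.58, 0.47 and 0.46 in NICD1, NICD3 and NICD4 once the GC trend was removed. ZNF653, a repressor of the nuclear receptor NR5A1 and the member of cluster 3 with the highest level per kb, rose by 0.70, 0.50, 0.84 and 1.23, and with the GC trend removed NICD1 turned to -0.0743, the NICD2 and NICD4 calls were lost (0.16 and 0.17) and NICD3 was at 0.26. ZNF317 of cluster 2 rose in NICD1, NICD3 and NICD4 (0.44, 0.27 and 0.83), and with library totals alone NICD1 turned to -0.0182 and NICD3 to -0.145.

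**Figure D3:**
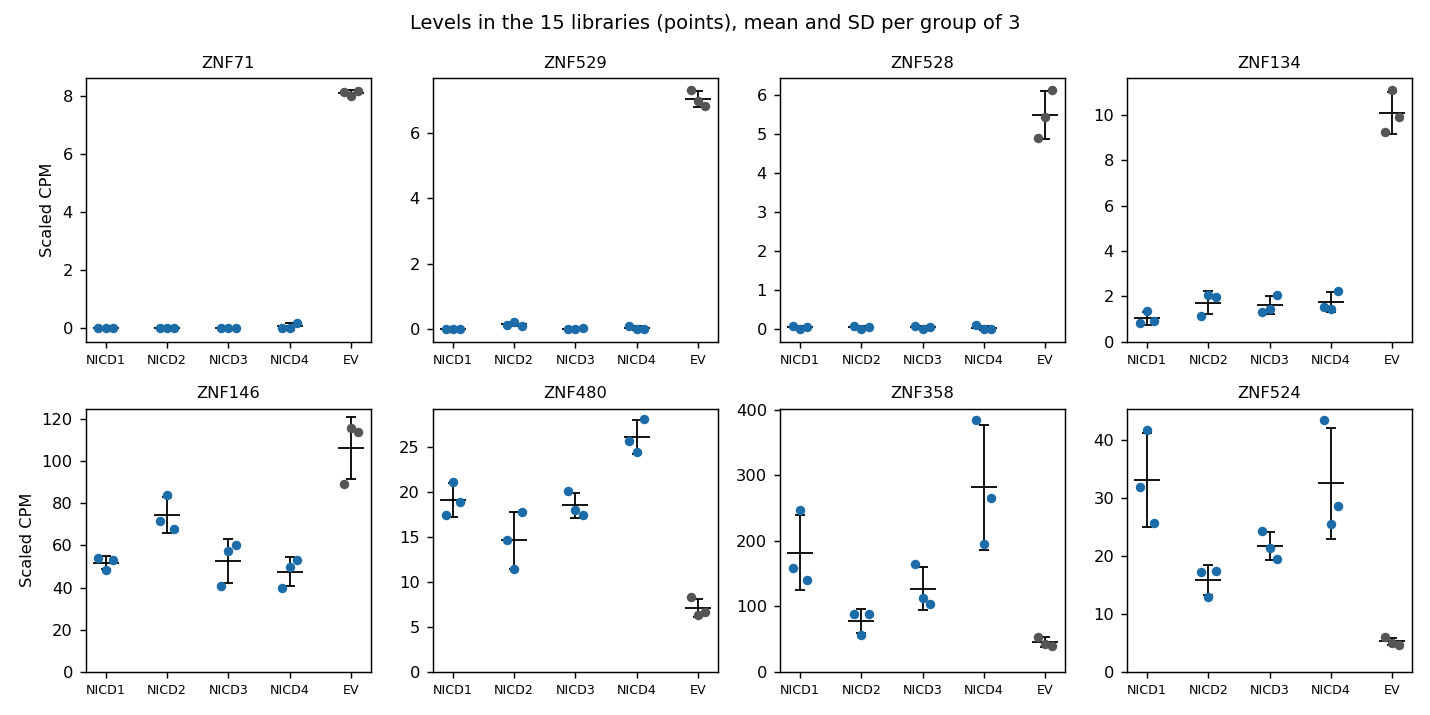
Scaled CPM (vertical axis) of 8 members in the 15 libraries, with NICD1 to NICD4 in blue and EV in grey, and the mean and SD of each group of 3 as lines. ZNF71, ZNF529 and ZNF528 are at or near 0 in every NICD library, ZNF134 and ZNF146 are lower than EV, and ZNF480, ZNF358 and ZNF524 are above the EV libraries.

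Members with and without a KRAB match had medians of opposite sign, and they also differ in GC content and in how they passed the filter. KRAB and finger matches were counted in the longest reading frame of the gene's transcripts. A KRAB match is a match to a short pattern, so a member without one may still carry a KRAB box. Of the 151 tested members with a KRAB match, 128, 108, 121 and 118 fell and 6, 4, 3 and 11 rose in NICD1 to NICD4, with medians of -1.80, -1.02, -1.46 and -1.65. Of the 32 without one, 10 fell in each group and 20, 16, 19 and 20 rose, with medians of 0.82, 0.36, 0.71 and 1.09. With the GC trend removed, 102, 88, 105 and 83 KRAB members still fell (medians -1.18, -0.69, -0.97 and -0.75) and the others had medians of 0.08, 0.17, 0.28 and 0.20. Of all genes tested, 39.8%, 30%, 36.2% and 43.6% fell and 35.6%, 29.6%, 33% and 37.3% rose. With the GC trend removed, 28.9%, 22.3%, 27.2% and 33% of all genes fell. All 57 members that passed only through EV, and had to be lower, have a KRAB match. The other 94 with a match had medians of -1.11, -0.69, -0.85 and -0.75, or -0.47, -0.29, -0.43 and -0.15 with the GC trend removed. By fingers, the 37 members with 0 to 8 had medians from -0.30 to 0.16, the 60 with 9 to 12 from -1.66 to -1.02, the 53 with 13 to 16 from -1.99 to -1.41, and the 33 with 17 or more from -1.19 to -0.72. Without the members that passed only through EV, these were -0.13 to 0.33 (32 members), -1.03 to -0.74 (39), -1.33 to -0.78 (32) and -0.70 to -0.38 (23).

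Across all tested genes the change against EV rose with GC content, and the members of low GC lay lower than other genes of like GC. Members had a median transcript GC content of 42.3% (33.9% to 71.1%), against 49.4% over the 14737 tested genes with a value. At 38% to 41% GC, the 41 tested members had medians of -2.85, -2.86, -3.31 and -1.77 in NICD1 to NICD4, against -0.65, -0.33, -0.53 and -0.86 for 1524 genes without a ZNF symbol. For those that passed in the NICD libraries the medians were -1.26, -0.70, -1.10 and -0.96 (21 members) and -0.62, -0.30, -0.49 and -0.83 (1448 genes). Above 60% GC, the 17 tested members had medians of 1.12, 0.57, 0.96 and 1.60, against 0.75, 0.40, 0.57 and 1.03 for 2345 such genes. After each library's trend on GC was removed, 113, 97, 116 and 93 members fell and 29, 20, 29 and 35 rose, where 28.9%, 22.3%, 27.2% and 33% of all 14737 genes fell and 41.7%, 38.8%, 39.2% and 41.8% rose. The members had medians of -0.94, -0.49, -0.83 and -0.55, while the medians of all genes moved to 0.12, 0.13, 0.10 and 0.10. Of the 126 members that passed in the NICD libraries, 44.4%, 31.7%, 46.8% and 31% then fell, where 25.7%, 19%, 24.1% and 30.2% of all 13876 such genes did, so in NICD4 the share is near that of all genes. With library totals alone as the scaling, the medians of all genes moved to -0.53, -0.31, -0.48 and -0.66 and those of the members to -1.90, -1.15, -1.71 and -1.78.

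**Figure D4:**
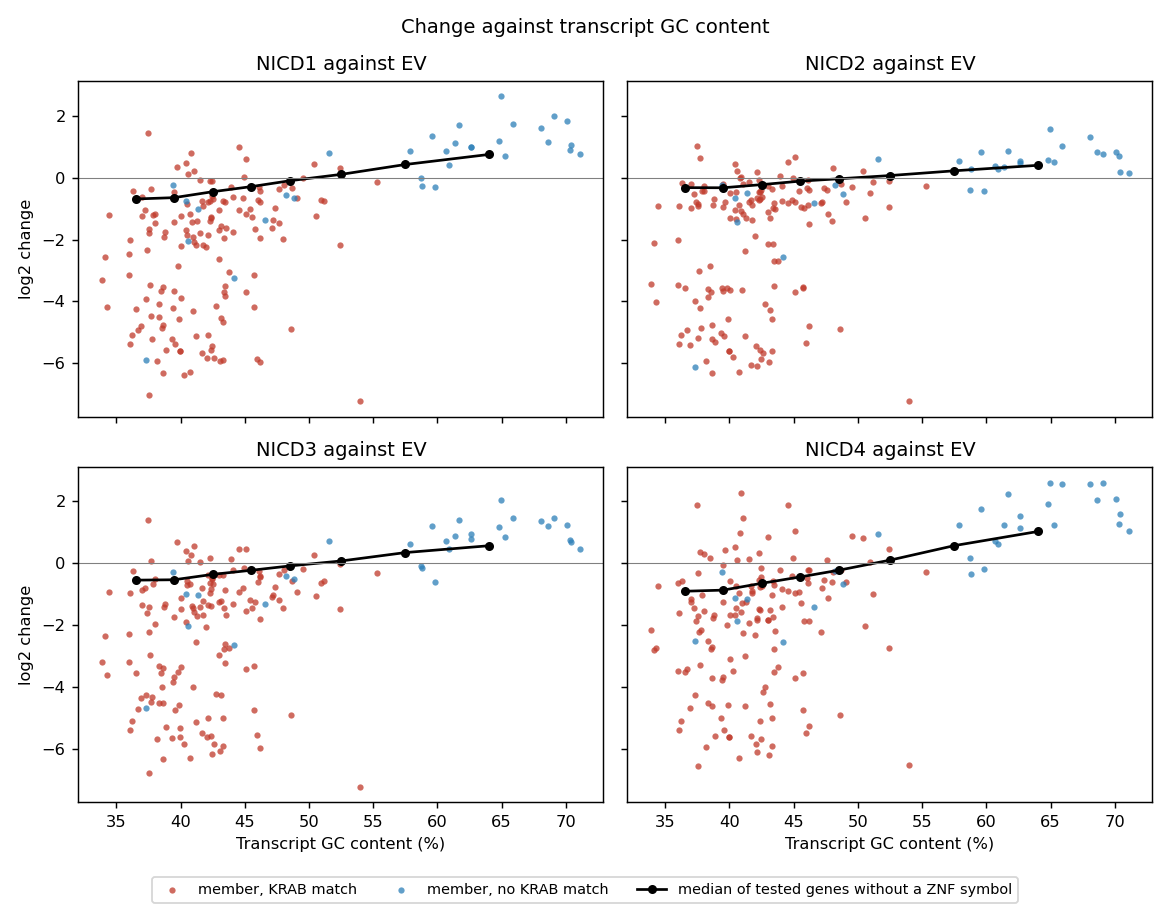
Log2 change against EV (vertical axis) of the tested members, by transcript GC content in percent (horizontal axis), in each NICD group, with members that have a KRAB match in red and the others in blue. The black line joins the medians of tested genes without a ZNF symbol in bands of GC, which rise from -0.69 in the lowest band to 0.75 in the highest in NICD1, and many red points lie far below it.

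Partners of KRAB proteins included genes that rose and genes that fell. Of 19 genes on a fixed corepressor list that were tested, 4, 3, 4 and 5 rose and 11, 9, 9 and 11 fell in NICD1 to NICD4, and with the GC trend removed 7, 6, 7 and 7 rose and 7, 6, 7 and 8 fell. The list includes ZNF274, itself a member, which is counted among the genes that fell in all 4 comparisons in both settings. The shares are 21.1%, 15.8%, 21.1% and 26.3% up and 57.9%, 47.4%, 47.4% and 57.9% down, beside 35.6%, 29.6%, 33% and 37.3% up and 39.8%, 30%, 36.2% and 43.6% down of all genes. With the GC trend removed they are 31.6% to 36.8% up and 31.6% to 42.1% down, beside 38.8% to 41.8% and 22.3% to 33% of all genes. TRIM28 itself averaged 1838 ± 236 CPM in NICD1, 1607 ± 114 CPM in NICD2, 1806 ± 220 CPM in NICD3 and 2404 ± 455 CPM in NICD4, against 999 ± 67.8 CPM in EV (SD, n = 3 each). Its log2 changes were 0.87, 0.68, 0.85 and 1.25, and 0.18, 0.39, 0.33 and 0.30 with the GC trend removed. SETDB1 fell by 0.48, 0.39, 0.44 and 0.57 on the log2 scale. TASOR, a HUSH complex subunit, fell by 1.34, 0.94, 1.16 and 1.86, and SMARCAD1, a chromatin remodeller that binds TRIM28, by 1.55, 0.86, 1.30 and 2.18. Once the GC trend was removed, TASOR had -0.51, -0.44, -0.47 and -0.87 and SMARCAD1 had -0.71, -0.37, -0.61 and -1.19. CBX1, an HP1 protein, fell by 1.11, 0.90, 0.78 and 1.44. CBX3, another, fell by 0.46, 0.32, 0.30 and 0.92. CBX5, also an HP1 protein, rose in NICD3 (0.34), fell in NICD4 (-0.24) and was not called in NICD1 or NICD2. Once the GC trend was removed, CBX1 had -0.82, -0.70, -0.54 and -1.07. CBX3 then had 0.34, 0.16, 0.34 and 0.03, and CBX5 had 0.87, 0.52, 0.89 and 0.60. MORC2 rose in all 4 groups (0.31, 0.52, 0.48 and 0.71). ATF7IP rose in NICD2, NICD3 and NICD4 (0.75, 0.52 and 0.52).

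The 4 NICD groups were compared with each other as well, in the same fit over all 15 libraries. The F-test of limma over the 4 groups called 85 of 183 members (46.4%), where 67.9% of all genes tested were called. More members were higher than lower in NICD4 against each of the others. The share of the 183 that was higher was near that of all genes against NICD2 and NICD3. The share that was lower was smaller than that of all genes in all 3 pairs. The 57 members that passed the filter only through EV had few NICD reads, which leaves little room for a lower call. Against NICD2, 51 members were higher and 30 lower in NICD4 (30% and 33.5% of all genes, 63.5% in all), against NICD3, 43 were higher and 8 lower (23.4% and 25.6%, 49% in all), and against NICD1, 35 were higher and 1 lower (13.3% and 13.9%, 27.2% in all). NICD2 against NICD1 had 31 members higher and 15 lower (18.6% and 18.6%, 37.2% in all), and NICD3 against NICD2 had 3 higher and 12 lower (8.23% and 6.8%, 15% in all). NICD3 against NICD1 had 4 higher and none lower (3.56% and 3.16%, 6.72% in all). Without NICD4 replicate 1, the library with conflicting labels, 66, 35 and 24 members differed between NICD4 and NICD2, NICD3 and NICD1, beside 81, 51 and 36 with it. The count for NICD4 against NICD1 fell to 21 without NICD1 replicate 1 and to 23 without NICD1 replicate 3, and that for NICD2 against NICD1 to 23 without NICD1 replicate 2 or NICD2 replicate 2, beside 46. The 15 calls of NICD3 against NICD2 fell to 5 to 9 without EV replicate 3, NICD2 replicate 2 or 3 or any NICD3 library, and the 4 of NICD3 against NICD1 to 1 or 2 without NICD1 replicate 1 or 2 or NICD3 replicate 2 or 3.

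ZNF582 had 0.0687, 0.41 and 0.109 CPM in NICD1, 0.668, 0.565 and 1.09 in NICD2, 0.189, 0.136 and 0.479 in NICD3 and 4.79, 3.20 and 3.41 in NICD4, against 0.589, 0.772 and 0.881 CPM in EV. The 3 NICD4 libraries were above all 12 others. NICD4 was higher than NICD1 by 4.17 ± 0.47, than NICD2 by 2.25 ± 0.47 and than NICD3 by 3.70 ± 0.47 on the log2 scale (SE, limma adjusted p = 2.71e-05, 8.99e-04 and 7.22e-05). Against EV it rose in NICD4 (2.26, limma adjusted p = 4.22e-04) and fell in NICD1 (-1.91, limma adjusted p = 0.00189) and NICD3 (-1.44, limma adjusted p = 0.0131), the last call being lost with the GC trend removed (-0.85) and without NICD3 replicate 2 (-1.13).

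ZNF260, known in rodent heart as a partner of GATA4, had 0, 0.0683 and 0.109 CPM in NICD1, 0.0668, 0 and 0.0494 in NICD2, 0.126, 0.317 and 0.147 in NICD3 and 1.09, 0.848 and 1.17 in NICD4, against 6.58, 5.47 and 6.05 CPM in EV. NICD4 lay between the other NICD libraries and EV, with no overlap on either side, and was higher than NICD1 by 3.39 and than NICD2 by 3.61 on the log2 scale (limma adjusted p = 7.05e-05 and 1.55e-05). ZNF599 had 0.0687, 0.137 and 0.0547 CPM in NICD1, 0.267, 0.606 and 0.247 in NICD2, 0.315, 0.181 and 0.147 in NICD3 and 0.995, 1.30 and 1.17 in NICD4, against 1.95, 1.54 and 1.69 CPM in EV. It fell in NICD1, NICD2 and NICD3 (-3.69, -2.15 and -2.77) and was not called in NICD4 (-0.56, limma adjusted p = 0.148). The difference of NICD4 from NICD1 was 3.14 ± 0.35 (SE, limma adjusted p = 2.42e-05).

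ZNF875 (HKR1) had 13.3, 12.1 and 13 CPM in NICD1, 15.3, 14.1 and 15.2 in NICD2, 13.1, 14.3 and 13.4 in NICD3 and 23.7, 21.1 and 19.7 in NICD4, against 20.1, 21.4 and 21.3 CPM in EV. NICD4 overlapped EV and lay above the other NICD groups, by 0.74, 0.53 and 0.65 over NICD1, NICD2 and NICD3 (limma adjusted p = 3.98e-05, 1.85e-04 and 1.05e-04). ZNF793, named here after its values were seen, had the same order, with means of 0.0866, 0.209, 0.131 and 1.93 CPM in NICD1 to NICD4, against 1.71 CPM in EV.

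ZNF780A, outside the clusters, had 7.15, 7.92 and 7.76 CPM in NICD1, 16.5, 14.7 and 14.9 in NICD2, 9.83, 11.5 and 10.2 in NICD3 and 14.4, 12 and 12.5 in NICD4, against 9.98, 9.48 and 10.2 CPM in EV. NICD2 and NICD4 were above EV (0.63 and 0.38, limma adjusted p = 1.09e-04 and 0.0028) and NICD1 below it (-0.38, limma adjusted p = 0.00351), and NICD2 exceeded NICD1 by 1.01 ± 0.10 (SE, limma adjusted p = 6.23e-06). These directions against EV depend on the processing, since removing the GC trend turned NICD1 to 0.45 and library totals alone turned NICD4 to -0.16.

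**Figure D5:**
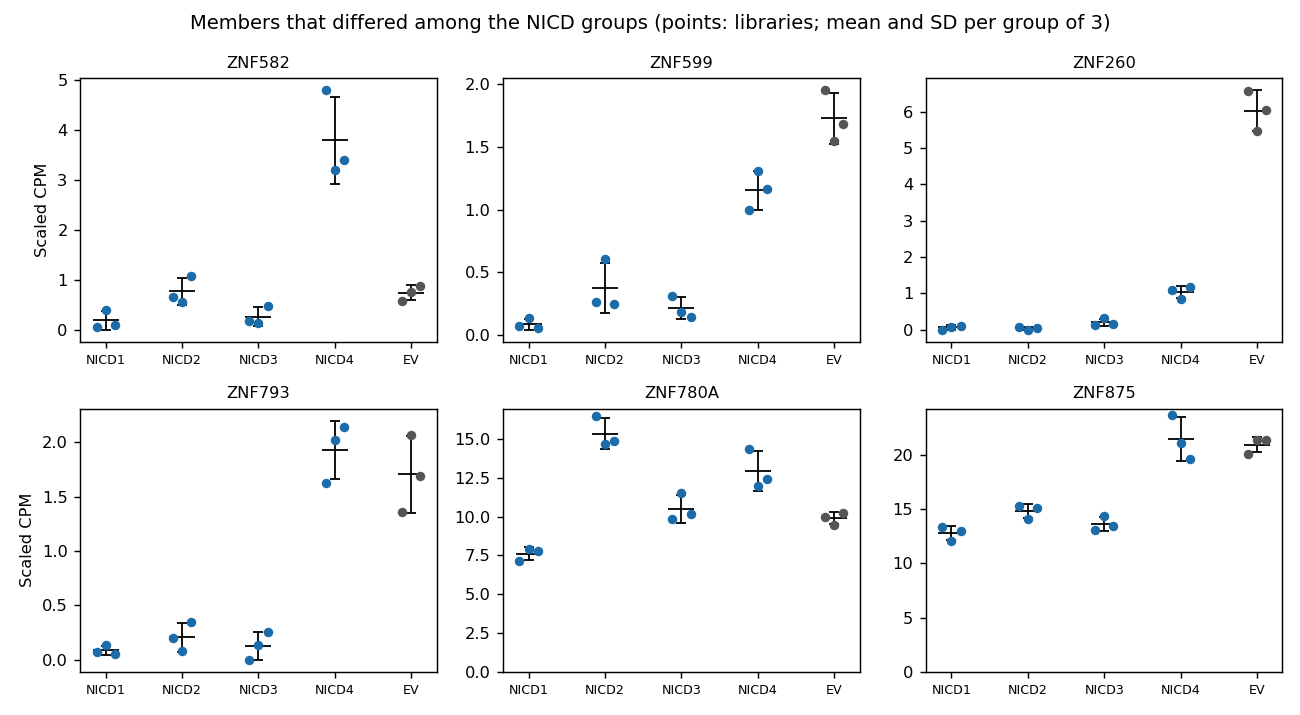
Scaled CPM (vertical axis) of 6 members in the 15 libraries, with NICD1 to NICD4 in blue and EV in grey, and the mean and SD of each group of 3 as lines. In ZNF582 the NICD4 libraries, at 3.20 to 4.79 CPM, are above all others, and in ZNF599, ZNF260, ZNF793 and ZNF875 they are above the other NICD libraries.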

How the data were processed

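RNA was read in 15 libraries of 5 groups, 3 each, named by their titles. The deposited values are log2(raw count + 1) per gene, and the authors' alignment used TopHat2 2.0.6 and HTSeq on GRCh37, per the submitters' processing notes. Whether counting used strand is not given in the sources used here, so overlapping and antisense genes cannot be told apart. The count behind each deposited log2 value was recovered as a whole number (largest deviation 0.00075558, tolerance 0.001). Libraries held 11630195 to 27704492 reads.

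A gene was tested if 3 or more libraries held the equivalent of 10 reads at the median depth and its total was 15 reads or more (15122 genes). Counts were scaled by trimmed means (TMM), and log2(scaled count + 1), where the added count equals 0.0545 CPM, was fitted with limma 3.58.1 and statmod 1.5.0 in R 4.3.3 with 5 group means and a robust mean-variance trend. A call is a Benjamini-Hochberg adjusted p under 0.05 over all genes tested. A count model was not used because the deposited unit is log2, and fold changes of low genes are understated on this scale. Intervals and the floor of 3 reads cover counting error only. The code was tested on simulated data.

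Ensembl IDs were matched to symbols for 29524 of 31352 genes. GC content was known for 14737 genes tested (97.5%), and its trend was removed per library with a spline of 5 degrees of freedom. KRAB and finger matches come from the longest reading frames of GENCODE 29 transcripts, in place of a protein table. Single genes were named by a rule: for each NICD group the 8 largest called rises and 8 largest called falls with a mean of at least 1 CPM and no overlap of the groups, the 8 with the largest smallest change in all 4 comparisons in each direction, the 5 lowest F-test p-values, the highest level per kb in each cluster, and the listed genes. Other members of cluster 8 were named for their place. The members and lists were chosen with earlier results of these data known. Alternatives were another scaling, pseudocount, filter, limma voom weights, GC trend, cluster gap, a replicate block, leaving out each library and, chosen after seeing the data, lists without the members that passed only through EV.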

Additional observations from a re-analysis of the deposited data

Results flagged for a closer look

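The members below moved in opposite directions against EV in different NICD groups, with a called difference between those groups. ZNF780A was higher in NICD2 than in NICD1 by 1.01 and higher in NICD4 than in NICD1 by 0.759 on the log2 scale (limma adjusted p = 6.23e-06 and 1.22e-04). ZNF582 was higher in NICD4 than in NICD1 by 4.17 and than in NICD3 by 3.70 (limma adjusted p = 2.71e-05 and 7.22e-05).

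ZNF233 was higher in NICD4 than in NICD1 by 1.93 (limma adjusted p = 0.00184). It had 2.53, 1.37 and 2.34 CPM in NICD4 and 0.825, 0.614 and 0.219 CPM in NICD1, against 1.04, 1.02 and 1.19 CPM in EV, so the NICD4 libraries lay above EV and the NICD1 libraries below it.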

How the results depend on the processing

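Members called lower in NICD1 to NICD4 numbered 138, 118, 131 and 128, and no processing alternative turned the sign of their medians. Library totals alone gave medians of -1.90, -1.15, -1.71 and -1.78 and 11 members higher in NICD2. The stricter filter of 50 reads left 117 members, with 80, 69, 78 and 76 lower and medians of -0.91, -0.53, -0.84 and -0.72. Removing the GC trend gave medians of -0.94, -0.49, -0.83 and -0.55, and a trend fitted without ZNF genes, chosen after seeing the data, gave -0.99, -0.53, -0.85 and -0.60. A pseudocount of 4 gave -1.31 in NICD1 and -1.14 in NICD4, and members with at least 80% unique 50-base stretches gave -1.67 and -1.46. NICD3 against NICD1 had 2 calls with library totals or no filter, and NICD3 against NICD2 had 6 with no filter. The causes were not tested.

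Cluster medians over the 4 NICD groups moved with the gap, which changes the members that a cluster holds. A gap of 250 kb gave -3.20 for cluster 4, -4.78 for cluster 8 and -1.79 for cluster 9, and 1000 kb gave -0.67 for clusters 9 and 10. With the GC trend removed, clusters 1 to 4 had -0.00238, -0.25, -0.80 and -2.28, clusters 6 to 10 had -2.15, -0.79, -3.87, 0.39 and -0.55.

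Of 243 called results on single genes, 15 reversed in some setting, 43 lost the call in some setting and 31 when 1 library was left out, which reversed 0. These counts leave out results on genes that a setting no longer tested. Without EV replicate 1, 2 or 3, 165, 160 and 157 of the 243 stayed the same and 10, 15 and 18 weakened. With the filter of 50 reads, 193 stayed the same and 1 weakened. The rest were no longer tested. Library totals turned ZNF780A in NICD4 to -0.16, ZNF317 in NICD1 to -0.0182 and in NICD3 to -0.145, and ZNF616 in NICD4 to -0.000425. Removing the GC trend, with or without the replicate block, turned ZNF780A in NICD1 to 0.45 and in NICD4 against NICD2 to 0.25, ZNF653 in NICD1 to -0.0743, ZNF14 in NICD2 to 0.00435 and in NICD4 to 0.17, ZNF91 in NICD1 to 0.20, ZNF507 to 0.56, 0.24, 0.37 and 0.66, and ZNF177 in NICD4 to 0.0349. The trend fitted without ZNF genes gave 0.38 and 0.27 for ZNF780A, -0.0733 for ZNF653, 0.12 for ZNF14 in NICD4, 0.13 for ZNF91 and 0.50, 0.18, 0.30 and 0.62 for ZNF507.

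With 1 library left out, medians ranged from -1.53 to -0.76 in NICD1, from -0.97 to -0.45 in NICD2, from -1.32 to -0.63 in NICD3 and from -1.31 to -0.55 in NICD4. With the genes tested kept, a choice made after seeing the data, leaving out an EV library gave medians as low as -1.50, -0.90, -1.38 and -1.37 and as high as -1.40, -0.79, -1.20 and -1.21. Members lower ranged over 77 to 141, 50 to 122, 73 to 134 and 65 to 129, and members higher over 24 to 26, 13 to 21, 19 to 23 and 28 to 32. The lowest counts of members lower came without EV replicate 2. F-test calls ranged from 63 to 88, and calls between NICD groups from 23 to 60 (NICD2 against NICD1), 1 to 6 (NICD3 against NICD1), 5 to 21 (NICD3 against NICD2), 21 to 47 (NICD4 against NICD1), 63 to 82 (NICD4 against NICD2) and 35 to 56 (NICD4 against NICD3).

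The replicate numbers do not pair the libraries. Same-numbered libraries of different groups had correlations of -0.43 to 0.36, and 6 of 15 libraries correlated best with their own number. The replicate block gave 26 and 137 members higher and lower in NICD1, 19 and 119 in NICD2, 22 and 131 in NICD3, 29 and 128 in NICD4 and 89 F-test calls. With the block and the GC trend removed, the counts were 28 and 114, 21 and 97, 29 and 116, 35 and 91, and 86. Depth limits the near-zero members, where 3 reads over a group are the floor.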
